A study of Mus musculus with 9 samples.

Results

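The genes described here encode the translation initiation and elongation factors of the mouse, taken by symbol as the protein-coding genes of GENCODE release M1 whose names start with *Eif* and a digit from 1 to 6, or with *Eef* and 1 or 2. There were 67 such gene records among 22367 protein-coding ones, under 66 symbols, because *Eef2k* has 2 records. The name does not always mark a factor. Of the 67 records, 52 were counted by symbol as factors or their subunits, *Eif1ad* and *Eif4a3* among them. The other 15 were counted as sharing only the name. They are the eIF2 kinases, the proteins that hold or carry eIF4E, the eEF2 kinase, the synthetase scaffold *Eef1e1* and the Argonautes. This annotation still lists the Argonautes as *Eif2c1* to *Eif2c4*.

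The study mapped where the histone H2A deubiquitinase BAP1 sits on chromatin in Ba/F3, a murine B cell precursor line grown on IL-3 from WEHI conditioned medium, to ask which genes it may control directly. Chromatin was immunoprecipitated with an anti-BAP1 antibody from wild type cells, and with an anti-FLAG antibody from puromycin-selected cells that stably express triple-FLAG-tagged murine BAP1. Each antibody was used in 1 immunoprecipitation, and a single list of 13164 peaks, each 200 bp wide and with no height or score, was deposited for both. The input samples and the H2AK119ub samples, which come from wild type cells and 2 single-cell *Bap1* knockout clones, were not analysed here. With 1 list there is no spread between samples, read depth is unknown, and the 95% Wilson intervals below cover counting error only. No test over genes was run, since genes are not replicates of a condition. What each gene shows is therefore where the listed peaks lie, not how strong they are or whether both antibodies found them.

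Translation starts when eIF2 brings the initiator tRNA to the small ribosomal subunit, held open by eIF1, eIF1A and the large eIF3 complex, while eIF4F recruits the capped mRNA. After the start codon is found, eIF5 and eIF5B release the factors and let the large subunit join, and eEF1A and eEF2 then drive each step of elongation. Stress kinases that phosphorylate eIF2 and repressors that hold eIF4E adjust the rate, and growing cells need a steady supply of the factors.

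A gene was counted as having a gene-proximal peak when the middle of a peak lay no further than 1 kb from at least 1 of its transcription start sites (TSSs). That held for 55 of the 67 factor genes, 82.1% (71.3 to 89.4%), and for 39.6% of all protein-coding genes. Outside the family the share was 39.4%, or 8795 of 22300 genes. The genes counted as factors or subunits had a peak in 46 of 52 cases (88.5%, 77.0 to 94.6%). Those counted as sharing only the name had one in 9 of 15 (60.0%, 35.7 to 80.2%), and the intervals overlap. When *Eef2k* was counted once, 55 of 66 symbols (83.3%) had a peak.

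Whole complexes carried peaks. All 13 subunits of eIF3, from *Eif3a* to *Eif3m*, had one (77.2 to 100%), as had the 5 subunits of eIF2B, *Eif2b1* to *Eif2b5*, which reload eIF2 with GTP (56.6 to 100%). The 7 genes placed by symbol under start codon selection and subunit joining also had a peak each (64.6 to 100%). They are *Eif1*, *Eif1a*, *Eif1ax*, *Eif1b*, *Eif1ad*, *Eif5* and *Eif5b*. *Eif2s1* and *Eif2s2*, the alpha and beta subunits of eIF2, had a peak too. Some of these peaks also lay within 1 kb of another gene's TSS and cannot be given to either gene. With only unshared peaks counted, *Eif3c*, *Eif3i*, *Eif3k*, *Eif3m*, *Eif2b1*, *Eif2b4*, *Eif1a*, *Eif1ad*, *Eif5b* and *Eif2s1* had none.

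The remaining roles were mixed. In eIF2 and its partners 5 of 6 genes had a peak, and *Eif2s3y* had none. For eIF4F, its paralogs and its helpers the count was 9 of 12, without *Eif4e*, *Eif4e1b* and *Eif4g3*. In eEF1, which by symbol includes the scaffold *Eef1e1*, it was 5 of 6, without *Eef1a2*. Among the regulators, 3 of 4 eIF2 kinases had a peak and *Eif2ak2* (PKR, the kinase that senses double-stranded RNA) did not. The eIF4E repressors *Eif4ebp1* and *Eif4ebp2* had one, but *Eif4ebp3* and *Eif4enif1*, which carries eIF4E into the nucleus, did not. Of eIF5A and eIF6, *Eif5a2* was the gene without, and *Eef2*, the translocase, had a peak where neither record of its kinase *Eef2k* had one. Of the Argonautes, the carriers of small RNAs, *Eif2c4* had none. Roles of so few genes have wide intervals, 30.1 to 95.4% for the kinases and 6.15 to 79.2% for eEF2 with its kinase.

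**Figure D1:**
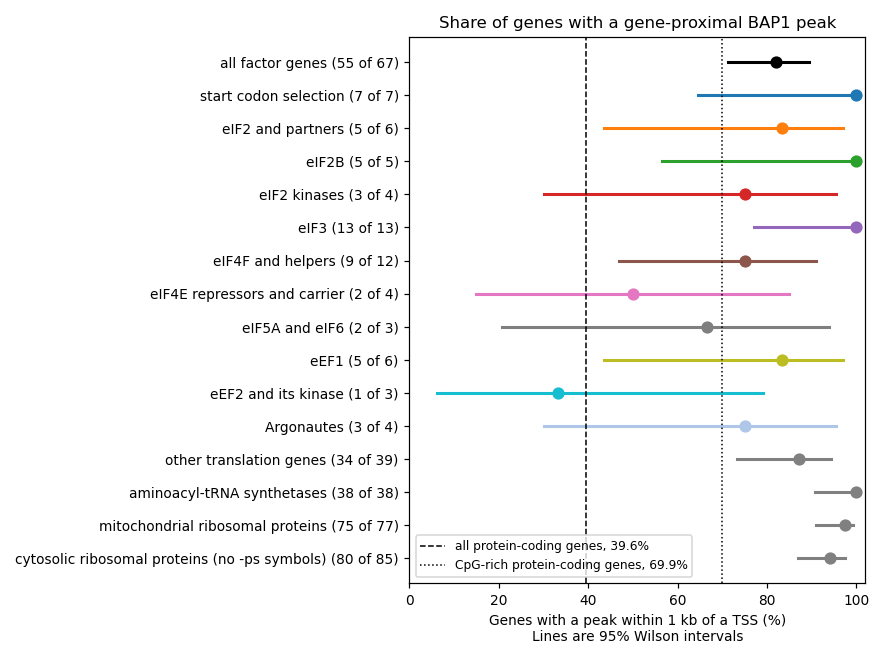
Share of genes with a BAP1 peak within 1 kb of a TSS, in percent, for all 67 factor genes, for each role and for 4 neighbouring families (points), with 95% Wilson intervals (lines). The dashed line at 39.6% is the share over all protein-coding genes and the dotted line at 69.9% that over CpG-rich ones; eIF3, eIF2B and start codon selection sit at 100%, and the lowest point is eEF2 with its kinase at 33.3%.

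The peaks sat on the promoters. The middle of the nearest peak lay at a median of -29.0 bp from the TSS, with quartiles of -76.5 and 2.50 bp, where negative values are upstream. Over the 8850 protein-coding genes with a gene-proximal peak the median was -32.5 bp, with quartiles of -73.0 and 0 bp. At 46 of 55 factor genes (83.6%, 71.7 to 91.1%) the middle was within 100 bp of the TSS, so that the 200 bp interval covered the start, against 77.8% of protein-coding genes with a peak. It was upstream in 39 of 55 (70.9%, 57.9 to 81.2%), against 75.0%. In place, 32 middles were upstream of the annotated gene, 22 in an exon and 1, that of *Eif5a*, in an intron.

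In 8 of 11 roles the closest peak had its middle within 20 bp of a start. The middle was 1 bp downstream of a TSS of *Eif2b3*, the gamma subunit of eIF2B, and of *Eif4a1*, the RNA helicase of eIF4F. It was at -2 bp for *Eif2a*, which can bind initiator tRNA apart from eIF2, at -4 bp for *Eif3b*, the eIF3 scaffold, and at +4 bp for *Eif2ak1* (HRI, the heme-regulated eIF2 kinase). For *Eif1ad*, a gene with an eIF1A-like domain, it was at -13 bp, for the hypusinated factor *Eif5a* at -15 bp, for *Eif4ebp1* at -17 bp, for the elongation factor *Eef1a1* at +21 bp, for *Eif2c3* at -43 bp and for *Eef2* at -76 bp. In these 11 genes, 1 per role, the interval of the peak covered the start. The *Eif2a* value was taken from an inner TSS at 58329978, just before the start codon at 58329981. From the RefSeq start of *Eif2a*, at 58329743, the nearest peak was at 48 bp.

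By role, the median position ran from -77.0 bp for the 2 eIF4E repressors with a peak to 11 bp over the 5 eIF2B genes, whose nearest peaks all had their middle between -6 and 41 bp. It was -67.0 bp over the 7 genes of start codon selection and -58.0 bp over the 13 eIF3 genes. Over 9 genes of eIF4F and its helpers it was 1.00 bp. Over 5 eEF1 genes it was -71.0 bp, the position of the *Eef1e1* peak. The most upstream nearest peak was that of *Eif3d*, the eIF3 subunit that can itself bind caps, at -284 bp (chr15:77801439-77801638), and the most downstream was that of *Eif3k*, an accessory subunit, at 90 bp (chr7:29766644-29766843). *Eif3d* was also the gene nearest to the edge of the window from inside. Between it and the first gene outside, *Eif4e* at 1062 bp, there was none.

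**Figure D2:**
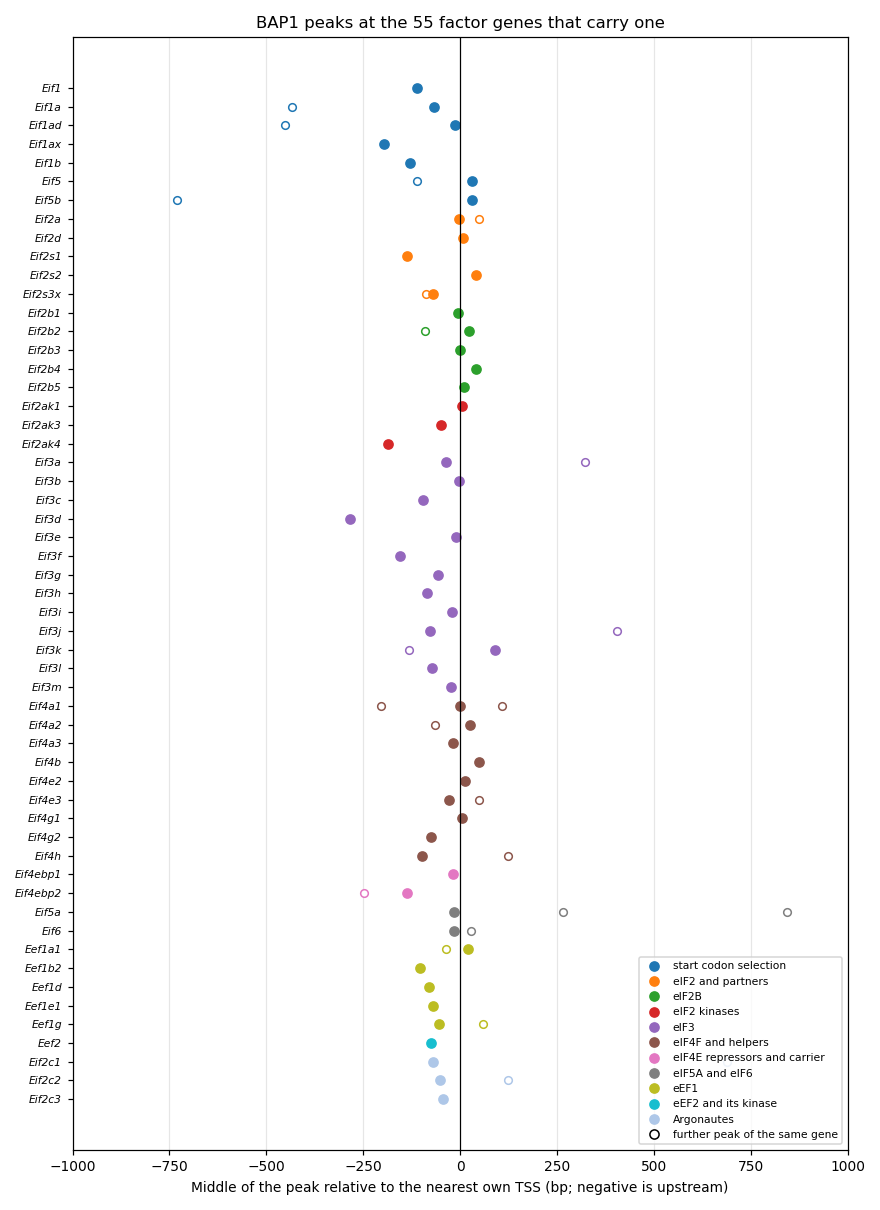
Position of every gene-proximal peak at the 55 factor genes that have one (rows, coloured by role), as the distance in bp from the nearest TSS of the same gene to the middle of the peak; filled points are the nearest peak and open points further peaks of the gene. The filled points lie between -284 bp (*Eif3d*) and 90 bp (*Eif3k*), 46 of them within 100 bp of the start.

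Many factor genes had more than 1 peak. In all 78 peaks lay near the 55 genes: 34 genes had 1, 19 had 2, and *Eif4a1* and *Eif5a* had 3. The share with more than 1 was 21 of 55 (38.2%, 26.5 to 51.4%), against 25.5% of protein-coding genes with a peak. When intervals within 500 bp were merged, 5 genes (9.09%) were left with more than 1, against 5.84% of protein-coding genes with a peak. The factor genes also had more annotated TSSs, a median of 3.00 against 2.00 over protein-coding genes.

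For the 19 genes with 2 peaks the middles were a median of 214 bp apart. They were 103 bp apart at *Eif4e3*, 112 at *Eif4ebp2*, 113 at *Eef1g*, 125 at *Eif4a2*, 143 at *Eif5*, 147 at *Eif6*, 170 at *Eif2s3x*, 175 at *Eif2c2* and 185 at *Eif2a*, so that the 200 bp intervals overlap. The gap was 214 bp at *Eif2b2*, 241 at *Eif4h*, 272 at *Eif3k*, 358 at *Eif3a*, 366 at *Eif1a* and 440 at *Eif1ad*, and reached 589 at *Eif3j*, 759 at *Eif2c1* and 763 at *Eif5b*. The widest was at *Eef1a1*, whose aminoacyl-tRNA carrier is among the most abundant proteins of a cell: its peaks lay 7370 bp apart, 21 bp downstream of the TSS at 78336958 and 36 bp upstream of that at 78329531 on chromosome 9, the latter being the start that RefSeq gives. The 3 peaks of *Eif4a1* spanned 1287 bp and were at 1, -205 and 109 bp from its TSSs, and the 3 of *Eif5a* spanned 1907 bp and were at -15, 266 and 845 bp.

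At 14 of the 55 genes (25.5%, 15.8 to 38.3%) the nearest peak also lay within 1 kb of another gene's TSS, against 31.5% of protein-coding genes with a peak. At *Eif1ad* that gene was *Banf1*, at *Eif2s1* it was *Atp6v1d*, at *Eif2b1* it was *Gtf2h3* and at *Eef1b2* it was *Ndufs1*. A peak between such neighbours cannot be given to either. When only peaks with no other gene's TSS within 1 kb were counted, 41 of 67 factor genes (61.2%) kept one, against 27.4% of protein-coding genes.

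The 12 gene records without a gene-proximal peak were far from any, with the exception of *Eif4e*. Their nearest peak lay at a median of 23512 bp, and for 8 of 12 its middle was within 1 kb of a neighbouring gene's TSS and far from their own. The nearest peak to *Eif5a2* was 24130 bp downstream of its TSS and 5 bp from the start of *Rpl22l1*. For *Eef1a2*, the eEF1A paralog of muscle and neurons, it was 30240 bp upstream and 7 bp from *Ppdpf*, and for *Eif2c4* it was 23477 bp upstream and 14 bp from *Clspn*. Each of these peaks lay at the start of a neighbour.

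The same held for 5 others. The nearest peak of *Eif4enif1* was 30892 bp away and 22 bp from *Drg1*, that of *Eif4ebp3* 15336 bp away and 30 bp from *Apbb3*, and that of *Eif2ak2* 23546 bp away and 53 bp from *Heatr5b*. *Eif4g3* had its nearest peak 15384 bp from the closest of its 11 TSSs and 154 bp from *Hp1bp3*. The short second record of *Eef2k* had it 12237 bp away, 76 bp from *Polr3e*.

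In the other cases no promoter of a neighbour was under the peak, or only just outside the window. The main *Eef2k* record, the calcium-dependent kinase that switches eEF2 off, had its nearest peak 11558 bp upstream (chr7:127974688-127974887), 44025 bp from the closest TSS of any other gene. *Eif4e1b*, a germ cell paralog of the cap-binding protein, had it 33099 bp upstream, 1025 bp from *Gprin1*. *Eif2s3y*, the copy of the eIF2 gamma subunit on chromosome Y, lay 780760 bp from the 1 peak listed on that chromosome.

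*Eif4e*, which encodes the cap-binding subunit of eIF4F, was the gene nearest to the window from outside. GENCODE M1 gives it a single TSS, at 138189155 on chromosome 3, plus strand. The peak (chr3:138190118-138190317) has its middle 1062 bp downstream, in an intron, and 832 bp from the microRNA gene *Mir1956*. RefSeq starts, placed by exact match of its promoter sequences to NCBIM37, put a start of *Eif4e* at 138190232, and from there the middle was at -15 bp. With windows of 2 or 5 kb, or by the nearest edge of the peak, *Eif4e* was the gene that joined the 55. Of the 49 factor symbols with a matched RefSeq start, 42 (85.7%) had a peak within 1 kb, against 42.5% of 15809 genes. The sequence of the peak on the gene's strand up to 30 bases from that RefSeq start on (chr3:138190118-138190261, NCBIM37, plus strand) is shown because it holds the E-box CACGTG, in capitals, upstream of that start.
Eif4e: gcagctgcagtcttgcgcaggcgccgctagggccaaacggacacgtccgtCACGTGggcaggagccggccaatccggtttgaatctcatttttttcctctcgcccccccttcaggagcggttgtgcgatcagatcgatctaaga

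Some sets of paralogs were divided. The sets are genes that share a symbol stem and a role. Of 10 such sets, the subunit series of eIF3 and eIF2B left aside, 8 had members both with and without a peak. With those series counted it was 8 of 12. The share of divided sets among other protein-coding genes was not computed, so the count only describes these sets. The *Eif4a* genes and the *Eif1a* pair had a peak at every gene. *Eif1* and *Eif1b*, whose symbols form no such set here, both had one. *Eif2s3x* on chromosome X had 2 peaks, the nearest at -71 bp, where *Eif2s3y* had none. *Eif5a* had 3 where *Eif5a2* had none, and *Eef1a1* had 2 where *Eef1a2* had none. *Eif4g1*, the scaffold of eIF4F, had its peak 4 bp downstream of the TSS at 20672796 on chromosome 16, an inner start of a gene that begins at 20668386, and *Eif4g2*, which initiates without eIF4E, had one at -76 bp, while *Eif4g3* had none. Among the cap-binding paralogs, *Eif4e2* had a peak at 12 bp and *Eif4e3* 2 peaks, the nearest at -29 bp. The kinases *Eif2ak3* (PERK, of the endoplasmic reticulum) and *Eif2ak4* (GCN2, which senses uncharged tRNA) had theirs at -50 and -186 bp, and the Argonautes *Eif2c1* and *Eif2c2*, which carry microRNAs, at -71 and -52 bp.

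Short sequences that known promoter factors prefer were looked for, on both strands, in the nearest peak of each of the 55 genes and in all 10073 gene-proximal peaks. The 9 letter strings were CCGGAAG for ETS factors, GCATGCGC for NRF1, AAGATGGC for YY1, GGGGCGGGG for SP and KLF factors, CACGTG for the MYC E-box, TGACGTCA for CRE, CTCGCGAG for ZBTB33, ACTACAATT for THAP11 with HCF1, and CCAATCAG for NFY. No string is contained in another. CACGTG, TGACGTCA and CTCGCGAG read the same on both strands. A match is a description of the letters and not a bound site.

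ETS letters were found most often, in 17 of 55 peaks (30.9%, 20.3 to 44.0%), against 20.2% of all gene-proximal peaks. They were under 7 of the 13 eIF3 peaks, those of *Eif3c*, *Eif3g*, *Eif3h*, *Eif3i*, *Eif3k*, *Eif3l* and *Eif3m*, and also under those of *Eif1ad*, *Eif1ax*, *Eif1b*, *Eif2s1*, *Eif2b4*, *Eif2ak1*, *Eif4e2*, *Eif4ebp2*, *Eif6* and *Eif2c3*. The middle of the 19 matches lay at a median of -18.0 bp from the TSS (-209 to 40 bp). The lower bound of the interval is at the background, and over all 78 peaks of these genes the share was 25.6%. Among the nearest peaks of protein-coding genes, a closer background, the share was 22.3%, which lies within the interval.

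SP/KLF letters were in 9 peaks (16.4%, 8.86 to 28.3%), against 23.5%, and MYC E-boxes in 7 (12.7%, 6.30 to 24.0%), against 8.06%, those of *Eif3a*, *Eif3f*, *Eif4b*, *Eif4g1*, *Eif4h*, *Eif5a* and *Eef2*. YY1 letters were in 3 (5.45%, 1.87 to 14.9%), against 5.08%, NRF1 letters in 2 (3.64%, 1.00 to 12.3%), against 5.80%, and NFY letters in 2 (3.64%, 1.00 to 12.3%), against 5.26%. CRE was in 1 (1.82%, 0.322 to 9.61%), against 3.35%, and ZBTB33 in none (0 to 6.53%), against 1.91%. The THAP11/HCF1 string, rare at 0.477% of all gene-proximal peaks, was in 2 (3.64%, 1.00 to 12.3%), *Eif2ak3* and *Eif3c*, with the middle of the match at -92 and -94 bp. At 19 of the 55 peaks (34.5%) none of the strings was found, against 43.1% of all. Apart from THAP11/HCF1, which rests on 2 genes, each background share lay within its interval or at its edge.

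**Figure D3:**
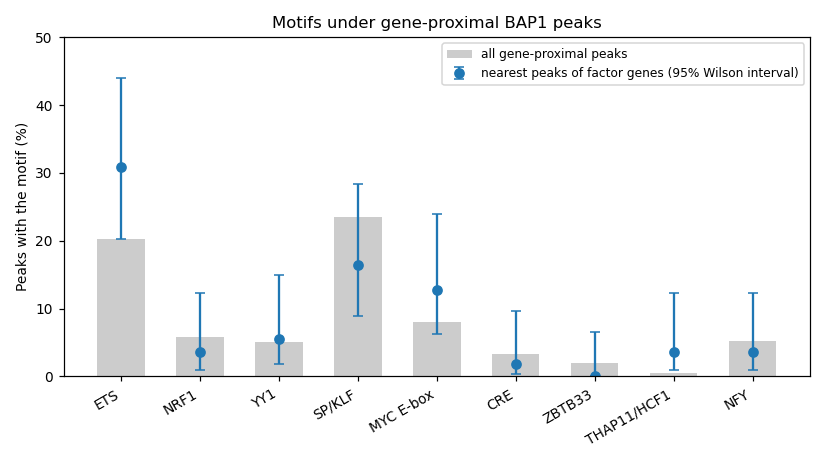
Percent of peaks that hold each of the 9 motif strings: blue points are the nearest peaks of the 55 factor genes with 95% Wilson intervals, and gray bars are all 10073 gene-proximal peaks. ETS is the highest point at 30.9% beside a bar of 20.2%, and THAP11/HCF1 is at 3.64% beside 0.477%.

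The following peaks are printed, 5′ to 3′ on the strand of the gene and no further than 30 bases from the TSS on, because they hold the strings just described, which are in capitals. Coordinates are on NCBIM37. *Eif3c* (chr7:133709877-133710076, minus strand) holds the reverse complement of THAP11/HCF1 followed by the reverse complement of ETS at 2 places, and *Eif3h* (chr15:51697013-51697212, minus strand) and *Eif2s1* (chr12:79962571-79962770, plus strand) the reverse complement of ETS. *Eif2ak3* (chr6:70794360-70794538, plus strand) holds THAP11/HCF1 in the forward direction.
Eif3c: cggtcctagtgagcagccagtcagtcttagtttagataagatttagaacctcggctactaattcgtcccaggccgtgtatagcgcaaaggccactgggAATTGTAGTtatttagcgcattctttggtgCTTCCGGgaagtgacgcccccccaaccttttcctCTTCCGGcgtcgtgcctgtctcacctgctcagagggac
Eif3h: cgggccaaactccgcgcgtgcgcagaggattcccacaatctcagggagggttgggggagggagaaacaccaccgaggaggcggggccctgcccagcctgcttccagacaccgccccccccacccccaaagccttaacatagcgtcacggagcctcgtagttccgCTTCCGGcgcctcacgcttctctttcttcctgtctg
Eif2s1: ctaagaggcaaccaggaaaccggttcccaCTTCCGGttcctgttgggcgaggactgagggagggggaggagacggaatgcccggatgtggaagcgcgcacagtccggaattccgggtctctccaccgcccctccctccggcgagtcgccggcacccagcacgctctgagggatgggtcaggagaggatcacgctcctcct
Eif2ak3: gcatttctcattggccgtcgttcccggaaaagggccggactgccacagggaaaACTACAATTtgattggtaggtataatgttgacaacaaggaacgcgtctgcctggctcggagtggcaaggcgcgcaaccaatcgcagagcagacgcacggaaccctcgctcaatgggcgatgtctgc

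For the E-box, *Eif5a* (chr11:69734859-69735003, minus strand) had CACGTG 1 base after an SP/KLF string, *Eif4h* (chr5:135115217-135115416, minus strand), a cofactor of the eIF4A helicase, had it upstream of the reverse complement of the NRF1 string, and *Eef2* (chr10:80639201-80639400, plus strand) had NRF1, E-box and CRE in that order, the last with its middle 6 bp past the TSS.
Eif5a: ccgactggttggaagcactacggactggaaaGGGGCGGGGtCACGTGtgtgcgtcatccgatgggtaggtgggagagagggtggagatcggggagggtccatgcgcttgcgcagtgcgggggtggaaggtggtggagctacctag
Eif4h: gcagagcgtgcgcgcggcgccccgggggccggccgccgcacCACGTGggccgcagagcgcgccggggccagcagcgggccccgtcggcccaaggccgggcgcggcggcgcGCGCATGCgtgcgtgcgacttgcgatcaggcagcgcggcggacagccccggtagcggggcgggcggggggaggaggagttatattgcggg
Eef2: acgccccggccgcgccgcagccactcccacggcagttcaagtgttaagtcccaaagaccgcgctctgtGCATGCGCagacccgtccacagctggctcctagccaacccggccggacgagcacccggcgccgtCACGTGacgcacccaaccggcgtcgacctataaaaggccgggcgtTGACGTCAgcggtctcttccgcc

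The YY1 string lay over start codons. In all 3 of its matches, and in the peak of *Eif4e*, it was on the strand of the gene and its ATG was an annotated start codon. Of the 512 gene-proximal peaks with the string, 223 (43.6%) had the ATG at an annotated start codon. The 4 sites are at chr3:58329967-58329996 (plus strand), chr16:20498973-20499001 (plus strand), chr15:43114223-43114252 (minus strand) and chr3:138190247-138190276 (plus strand), with the string in capitals and its ATG the first codon.
Eif2a start codon: ctttccgggacAAGATGGCgccgtccacac
Eif2b5 start codon: ggctgcgaagcAAGATGGCagccactgcg
Eif3e start codon: tttcccccggcAAGATGGCggagtacgacc
Eif4e start codon: cagatcgatctAAGATGGCgactgtggaac

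Most factor genes had CpG-rich starts, as in the CpG islands where this dinucleotide, rare elsewhere in the genome, has been kept. The CpG ratio, the observed count over that expected from the C and G content, was computed for 500 bp to each side of the first base of the longest transcript. Its median was 0.816 over the 67 genes (quartiles 0.688 and 0.896) and 0.546 over all protein-coding genes (0.224 and 0.770). At 0.6 or more, called CpG-rich here, were 59 of 67 factor genes (88.1%, 78.2 to 93.8%), against 45.6%. CpG-rich genes of any kind had a gene-proximal peak in 69.9% of cases, and those below the threshold in 14.1%. The CpG-rich class was not uniform. A peak was at 608 of 1099 protein-coding genes in the bin from 0.60 and at 1091 of 1469 in the bin from 0.80.

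Set beside genes on the same side of the 0.6 threshold, with no finer match of CpG content, the shares were closer. Of the 59 CpG-rich factor genes 52 had a peak (88.1%, 77.5 to 94.1%), against 69.9%, and of the 8 others 3 had one (37.5%, 13.7 to 69.4%), against 14.1%, which lies at the lower edge of an interval from few genes. Those 3 were *Eif2a* (ratio 0.0889), *Eif3m* (0.0944) and *Eif2d* (0.585). At the TSS nearest to the peak the ratio was 0.902 for *Eif2a* and 0.769 for *Eif3m*, so their low values belong to a more distant start, that of the longest transcript. At *Eef1a1*, CpG-rich at 0.816 by that start, it was the reverse, with 0.492 at the TSS nearest to a peak. When that start alone was used, *Eif2a* and *Eif3m* were the genes lost and the count was 53 of 67, against 37.0% of protein-coding genes.

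The genes without a peak were of both kinds. The median ratio was 0.819 with a peak and 0.667 without. *Eif2c4* (0.878), *Eif4g3* (0.846), *Eif4enif1* (0.817), *Eif2s3y* (0.811), *Eif5a2* (0.811), the main *Eef2k* record (0.732) and *Eif4e* (0.603) were CpG-rich and had none. *Eef1a2* (0.535), *Eif2ak2* (0.457), *Eif4ebp3* (0.354), *Eif4e1b* (0.168) and the second *Eef2k* record (0.138) were below the threshold.

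**Figure D4:**
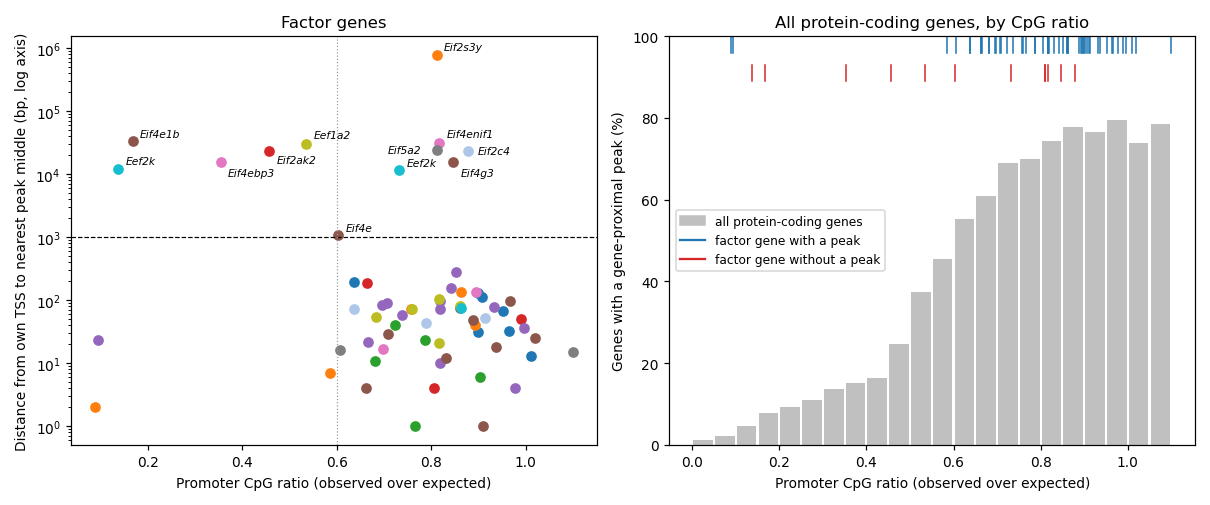
Left, distance from the nearest own TSS to the middle of the nearest peak (bp, log axis) against the promoter CpG ratio for the 67 factor genes, coloured by role as in the plot of positions, with the 1 kb window dashed, the 0.6 threshold dotted and the 12 records without a gene-proximal peak named. Right, percent of all protein-coding genes with a gene-proximal peak in bins of CpG ratio of at least 50 genes (bars), with ticks for factor genes with (blue) and without (red) a peak; 7 of the 12 red ticks lie at 0.6 or more.

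The mRNAs of elongation factors and ribosomal proteins are known to begin with a pyrimidine tract that ties their translation to growth signals. A run of 8 or more C or T was sought within 20 bases to either side of the longest transcript's TSS, on the sense strand. Such a run need not begin the mRNA. It was found at 19 of 67 factor genes (28.4%, 19.0 to 40.1%), against 15.6% of protein-coding genes and 39.9% of 138 cytosolic ribosomal protein records. Those 138 include pseudogene-like records, with -ps in the symbol, and the share without them was not computed. The run was at 16 of the 55 factor genes with a peak (29.1%, 18.8 to 42.1%), against 14.5% of protein-coding genes with one. In eIF3 the count was 5 of 13, with runs of 15 at *Eif3f* and *Eif3h*, 11 at *Eif3i* and *Eif3k*, and 10 at *Eif3l*. In eEF1, *Eef1e1* included, it was 4 of 6, with 14 at *Eef1d*, 12 at *Eef1a2*, 10 at *Eef1a1* and 8 at *Eef1g*. *Eef2* had a longest run of 7, because the window ends inside a run that reaches 8 bases in the sequence printed above. *Eef1b2* had one of 4, and the longest of all, 21, was at *Eif2b5*. The count turned on the length asked for: a run of 6 gave 44.8% against 37.2%, and a run of 10 gave 19.4% against 7.35%.

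Other genes of translation mostly had peaks too. A list of 39 genes outside the family, taken by symbol, held termination, recycling, cap and signalling genes. It also held *Eefsec*, *Dhps*, *Dohh* and mitochondrial translation factors such as *Tufm* and *Mtif2*. Of the 39, 34 had a peak (87.2%, 73.3 to 94.4%), and those without were *Gspt2*, *Mcts1*, *Mcts2*, *Metap2* and *Mtif3*. *Metap2*, a methionine aminopeptidase, had its nearest peak 1407 bp away, and the others between 15067 and 93970 bp. All 38 aminoacyl-tRNA synthetase genes had a peak (90.8 to 100%), as had 75 of 77 mitochondrial ribosomal protein genes (97.4%, 91.0 to 99.3%). Of all 138 cytosolic ribosomal protein records 81 had one (58.7%, 50.4 to 66.6%), an interval below that of the factor family. Without the pseudogene-like symbols that contain -ps, the counts were 80 of 85 cytosolic genes (94.1%, 87.0 to 97.5%), which overlaps the factor family, and 75 of 76 mitochondrial ones (98.7%, 92.9 to 99.8%). The cytosolic genes, taken by symbol, include *Rps19bp1*, which has a peak and only shares the name. The intervals of the synthetases and the mitochondrial ribosomal proteins lay above that of the factor family with all 67 records. Both overlap that of the genes counted as factors or subunits, 46 of 52 (77.0 to 94.6%).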

How the data were processed

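The authors mapped reads to mm9 with Bowtie 1.0.0 and called peaks against input with MACS 1.4.2, per the submitters' processing notes. The deposited values are peak starts and ends in bp, with no score. The threshold and the rule that joined both antibodies are not given in the sources used here, so no stricter threshold could be tried. Peaks were placed on GENCODE M1 (NCBIM37, the Ensembl name of mm9, 37273 genes without the mitochondrial chromosome). Columns of per-sample values that matched no sample numbered 0. RefSeq promoters (300 bases, 250 before and 50 after a start) were matched exactly to NCBIM37 near their gene, 30166 of 32851 of them.

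The members, roles, gene lists, motifs and settings were chosen with earlier results of these data known. Named were every member without a peak, with more than 1, at either extreme of position, or in a divided paralog set, and the closest per role. Sequences shown, the RefSeq starts, counts by symbol, counts of CpG-rich genes alone, the most upstream TSS and the second motif background were added after seeing the data. Intervals are 95% Wilson intervals. Scripts in Python 3.11.15 with numpy 2.4.6, pandas 2.3.3 and scipy 1.17.1 were tested on simulated data.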

Additional observations from a re-analysis of the deposited data

How the results depend on the processing

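Of 123 values recomputed under another setting, 120 stayed within 1.5 times their main count or within the main interval or quartiles, 3 moved beyond that and 0 reversed. Between 41 and 56 factor genes had a peak near a TSS, around 55. Merging peaks within 500 bp left 5 genes with more than 1 peak (9.09%, against 5.84% of protein-coding genes), in place of 21. A pyrimidine run of 6 or more was found at 30 genes and a run of 8 or more at any TSS of the gene at 36 (53.7%, against 32.9% of protein-coding genes), in place of 19. In each case the setting itself changes what is counted. The median position of the nearest peak was -58.0 bp with 1 TSS per gene and -23.0 bp with TSSs of coding transcripts, against -29.0 bp, and the YY1 string was in 12.7% of 400 bp intervals, against 8.00% of all gene-proximal ones. No paired analysis was possible because the 1 list pools both antibodies, no test was run, and the clone numbers that the labels share belong to knockout samples not analysed here. For the same reason no replicate could be left out. Depth and peak strength are unknown, so a gene without a listed peak may have one below the threshold.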

Other observations

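In 3 factor genes a further peak lay in an intron, with its middle outside the 1 kb window of every annotated TSS. The share of all protein-coding genes with such a peak was not computed. At *Eif2ak3* (PERK) it was at chr6:70830995-70831194, 36585 bp into the gene. At *Eif4e3*, a cap-binding paralog in a long gene, it was at chr6:99472649-99472848, 144043 bp from the start of the longest transcript. At *Eif4ebp1*, an eIF4E repressor, it was at chr8:28371724-28371923, 1024 bp from the start and thus just past the 1 kb window. All 3 genes also had a gene-proximal peak.

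Records with such names that are not protein-coding had no gene-proximal peak. The share over all noncoding and pseudogene records was not computed, so this count only describes these records. Of the 5, the processed transcript *Eif2c5* was 180506 bp from its nearest peak, and the pseudogenes *Eif3s6-ps1*, *Eif3s6-ps2*, *Eif4a-ps4* and *Eif5al3-ps* were 460879, 198131, 16280 and 78963 bp from theirs.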
